A study of Mus musculus with 6 samples.

Results

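The genes described here are 9 genes of the meiotic cohesin and separase pathway, *Smc1a*, *Smc1b*, *Smc3*, *Rec8*, *Rad21*, *Rad21l*, *Stag3*, *Espl1* and *Pttg1*. They were chosen by name for their role and not for their values, though with earlier results of these data known. They were read out of an expression table with 25899 gene symbols. All 9 were listed in it. The libraries come from oocytes of 58-week-old CD1 mice (aged females, AF) primed with 5 IU of pregnant mare serum gonadotropin. The oocytes were isolated in 100 µM IBMX, a phosphodiesterase inhibitor that holds them at prophase, and then cultured for 180 min without it, so that the nuclear envelope had broken down (NEBD). Cycloheximide, which holds ribosomes on the mRNA, was then added at 0.1 mg/ml for 10 min. Lysates of 200 oocytes per sample were separated on sucrose gradients. The non-polysomal fractions (NP, free RNA and RNA on single ribosomes) and the polysomal fractions (P, RNA on several ribosomes) were each pooled, which gave 3 NP and 3 P libraries. The study names the strain ICR where the labels name it CD1, and gives a lower age than the labels do. Oocytes of young females were not analysed here, so no value below compares ages. No source used here says whether the replicates came from separate groups of mice, so p-values measure only the spread between these samples.

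Cohesin is a protein ring that holds sister chromatids together. An SMC1 and an SMC3 subunit form the ring, a kleisin subunit closes it, and a STAG subunit binds the kleisin. Germ cells use meiotic versions of several subunits (SMC1B, the kleisins REC8 and RAD21L, and STAG3) beside or in place of the general ones (SMC1A, RAD21, STAG1 and STAG2), and mouse oocytes load REC8 cohesin before birth and depend on it until the meiotic divisions. At anaphase the protease separase (*Espl1*) cuts the kleisin, and until then it is held inactive by securin (*Pttg1*) and by cyclin B1 bound to CDK1.

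The mRNAs of the protease and its inhibitor were the most abundant of the 9 in both fractions. Those of the cohesin subunits other than *Rad21* were low or listed at 0. *Espl1* averaged 41.6 FPKM (fragments per kilobase of exon, scaled to the mapped reads of the library) in NP and 131 FPKM in P, and *Pttg1* averaged 40.7 and 97.1 FPKM. The kleisin *Rad21* was the only cohesin subunit of the 9 with a mean above 2 FPKM in either fraction. It averaged 4.99 FPKM in NP and 11.2 FPKM in P, above 34.7% and 66.4% of the genes tested. *Rec8* was listed at 0 in all 6 libraries. No gene of the 9 passed the test between P and NP, which 1.82% of all genes tested did. None had every P library above every NP library, as 0.633% of all genes tested had, or every NP library above every P library, as 23.2% had.

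The depth behind these values differed widely between libraries. The table gives FPKM and no read counts, but most low values were whole multiples of what 1 read was worth, which gave recovered depths of 1235947, 18092559 and 12147866 reads in NP and 163493, 1140250 and 1548817 reads in P, a 111-fold span. Genes above 0 numbered between 9992 and 13514 in NP and between 6247 and 9557 in P. Of 10 oocyte marker genes, 9 were above 0 in all 6 libraries. Of 13 granulosa and cumulus markers, 7 (*Amh*, *Foxl2*, *Fshr*, *Inhba*, *Has2*, *Ptx3* and *Tnfaip6*) were listed at 0 in all. *Cyp19a1*, the aromatase of granulosa cells, was at 7.15, 22.5 and 104 FPKM in NP and at 15.4, 0 and 0 FPKM in P, *Nr5a2* reached 26.9 FPKM in NP replicate 3, and *Star* was at 8.80 FPKM in NP replicate 2 only. The granulosa and cumulus list summed to between 11.2 and 131 FPKM in NP and between 1.18 and 16.5 FPKM in P, and its part in the levels below was not tested. The oocyte list summed to between 10417 and 13027 FPKM in NP and between 4531 and 13325 FPKM in P. Stromal markers summed to at most 0.0574 FPKM and blood and immune markers to at most 0.643 FPKM. In bulk RNA, fewer cells of a type and less RNA per cell cannot be told apart.

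*Espl1* (chr15:102296293-102324356, + strand, GRCm38) encodes separase, the cysteine protease that cuts the kleisin. Its level was 59.1, 50.4 and 15.4 FPKM in NP replicates 1 to 3 and 216, 39.5 and 139 FPKM in P replicates 1 to 3. P replicates 1 and 3 stood above every NP library, while P replicate 2 lay between NP replicates 2 and 3, so the fractions overlapped. The means were 41.6 ± 23.1 FPKM in NP and 131 ± 88.6 FPKM in P (SD, n = 3 each), a ratio of means of 3.16. On the log2(FPKM + 1) scale the difference, P minus NP, was 1.53 with an SE of 0.94 and a 95% interval from -0.40 to 3.47, and it did not pass the limma test (adjusted p = 0.413). At the recovered depths *Espl1* had between 309 and 7973 reads per library, which after amplification are not independent molecules. Its mean was above that of 77.4% of the genes tested in NP and of 95.7% in P.

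*Pttg1* (chr11:43420250-43426251, − strand) encodes securin, the inhibitor and chaperone of separase. It was at 26.3, 26.3 and 69.4 FPKM in NP and at 134, 50.8 and 106 FPKM in P. P replicates 1 and 3 again stood above every NP library, and P replicate 2 again fell below the highest NP library, here NP replicate 3. The means were 40.7 ± 24.9 FPKM in NP and 97.1 ± 42.5 FPKM in P (SD, n = 3 each), 2.39 times as much. The log2 difference was 1.28 (SE 0.90, 95% interval -0.58 to 3.14), which did not pass the test (limma, adjusted p = 0.466). *Pttg1* rested on between 44 and 1686 recovered reads per library. Its mean was above that of 77.1% of the tested genes in NP and of 94.3% in P.

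P replicate 1, the library with the fewest reads, held the highest value of both mRNAs. Without it the log2 difference was 1.02 for *Espl1* (adjusted p = 0.650) and 0.99 for *Pttg1* (adjusted p = 0.651), in the same direction. The 3 mRNAs nearest to *Espl1* over the 6 libraries, by Euclidean distance of log2(FPKM + 1) among the genes tested, were *Blcap* (1.26), *Khdc1c* (1.35) and *Paip2b* (1.36). Those nearest to *Pttg1* were *E330017A01Rik* (0.978), *2010107E04Rik* (1.10) and *Ppp1r10* (1.54). They were chosen for this likeness, so the pattern they share is a description.

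**Figure D1:**
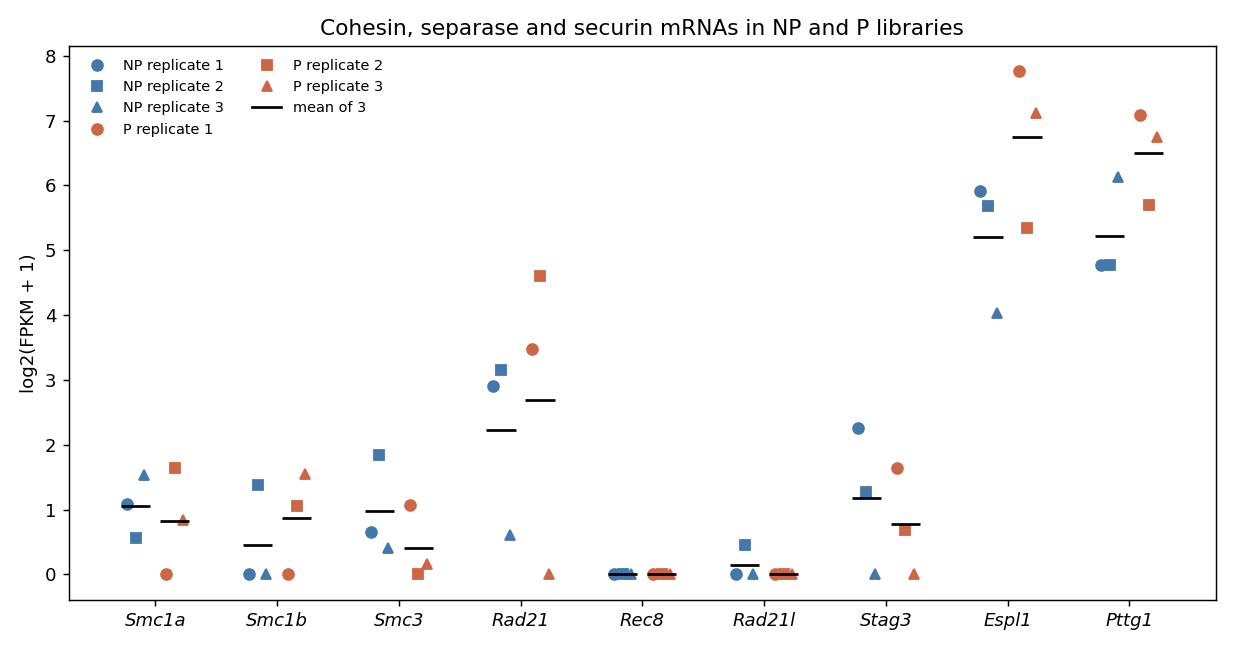
Level of each of the 9 mRNAs as log2(FPKM + 1), with one point per library (NP and P replicates 1 to 3) and a line at the mean of 3. *Espl1* and *Pttg1* stand above the subunits in both fractions, *Rad21* spreads from 0 to 23.3 FPKM, and *Rec8* lies at 0 in all 6 libraries.

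The end of the 3′UTR is shown for the mRNAs with the highest levels, since the cytoplasmic poly(A) tail governs translation in maturing oocytes. Each run is 30 bases on the mRNA strand of GRCm38, and the capitals mark the poly(A) signal, AATAAA, on the sense strand.
*Espl1*, chr15:102324324-102324353, + strand: taatgtgaccttAATAAAgatattccaagc
*Pttg1*, chr11:43420271-43420300, − strand: gtatgttgtattAATAAAgcatttgtgcat
*Rad21*, chr15:51962240-51962269, − strand: aaggtgagtttctgagcAATAAAagatttg
The *Rad21* site lies beyond the end of the gene as the expression table bounds it, in the longest coding transcript of the GENCODE M21 annotation. The last 150 bases of each 3′UTR, or the whole 3′UTR where it is shorter, were searched on the sense strand for 2 forms of the cytoplasmic polyadenylation element, the CPEB binding site TTTTAT or TTTTAAT. None of the 9 mRNAs held either form there, against 24.8% of the 8248 tested genes with a full window. The windows of *Espl1* (142 bases) and *Rec8* (34 bases) were shorter than 150, and *Rad21l* had no annotated 3′UTR. AATAAA or ATTAAA lay in the window of 82.9% of the tested genes with a full window, and of these 9 in all but *Smc1b*, *Smc3* and *Rad21l*. *Cdca5*, *Stag2*, *Set* and *Ppp2cb*, searched in the same way, held neither form. *Ccnb1*, the cyclin partner in separase inhibition, held TTTTAAT and is shown for comparison, with this element in capitals.
*Ccnb1*, chr13:100778775-100778804, − strand: ctcatttgctgTTTTAATttatacatctga

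Among the kleisins, *Rad21* (chr15:51962605-51991760, − strand), the general kleisin of mitotic cells, was at 6.50, 7.94 and 0.526 FPKM in NP and at 10.2, 23.3 and 0 FPKM in P. The third replicate was the lowest library of both fractions, and the ranges overlapped. The log2 difference was 0.47 with a 95% interval from -2.37 to 3.30 (SE 1.37, limma adjusted p = 0.874). It was -0.49 without P replicate 2, -0.34 without NP replicate 3, 1.82 without P replicate 3 and 0.077 without P replicate 1, so the data did not fix its direction. P replicate 1 held 7 recovered reads of *Rad21* and P replicate 2 held 113.

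*Rec8* (chr14:55618037-55625395, + strand), the kleisin that holds chromatid arms and centromeres together in oocytes, was listed at 0 in all 6 libraries. At the recovered depths, 3 reads of it would be worth 0.827, 0.0565 and 0.0841 FPKM in NP and 6.25, 0.896 and 0.660 FPKM in P, so the bound is tightest in NP replicate 2. Such limits cover counting error only. Whether a 0 in this table is an absent mRNA or a failed estimate was not tested. *Ppp2cb*, a phosphatase catalytic subunit, was also listed at 0 in all 6 libraries, as were 11417 of the 25899 symbols. The poly(A) signal of *Rec8*, the variant ATTAAA in capitals, lies in a 3′UTR of only 34 bases.
*Rec8*, chr14:55625358-55625387, + strand: ctgagcaagttcATTAAAccatatcctgcc
*Rad21l* (chr2:151645404-151668533, − strand), a kleisin of early meiotic prophase, was listed at 0.366 FPKM in NP replicate 2, or 11 recovered reads, and at 0 in the other 5 libraries. Neither *Rec8* nor *Rad21l* reached a mean of 1 FPKM in either fraction, so neither was tested.

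Of the SMC subunits, *Smc1a* (chrX:152016428-152062694, + strand), the general form, was at 1.12, 0.479 and 1.89 FPKM in NP and at 0, 2.13 and 0.783 FPKM in P. Its meiotic paralog *Smc1b* (chr15:85064691-85131957, − strand) was above 0 only in NP replicate 2 at 1.60 FPKM and in P replicates 2 and 3 at 1.08 and 1.92 FPKM. *Smc3* (chr19:53600398-53645833, + strand), the partner of both, was at 0.583, 2.59 and 0.327 FPKM in NP and at 1.10, 0 and 0.116 FPKM in P. The fractions overlapped for each of these genes. The value of *Smc3* in P replicate 1 is 1 recovered read, as is that in P replicate 3. At most 14 reads of any of these genes were recovered from a P library, while NP replicate 2 gave 50 for *Smc1a*, 117 for *Smc1b* and 260 for *Smc3*. For *Smc1b*, a count of 3 reads would be worth 4.53 FPKM in P replicate 1, so its 0 there sets no bound below the levels seen in the other libraries.

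The log2 difference of *Smc1a* was -0.23 (95% interval -2.10 to 1.63, limma adjusted p = 0.908) and turned to 0.18 without P replicate 1. That of *Smc1b* was 0.41 (-1.29 to 2.11, adjusted p = 0.810), and this gene entered the test only through its P mean, which was just above the minimum of 1 FPKM. For *Smc3* the difference was -0.56 (-2.25 to 1.13, adjusted p = 0.724). Each interval spans changes of more than 2-fold in both directions on this scale, so a difference of that size was not detectable for these genes. Processed pseudogenes on the opposite strand (*Gm15267*, *Gm10923* and *Gm49480*) lie within *Smc1a*, *Smc1b* and *Espl1* and share 0 exon bases with them.

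*Stag3* (chr5:138280240-138312393, + strand), the meiotic STAG subunit, was at 3.80, 1.43 and 0 FPKM in NP and at 2.13, 0.611 and 0 FPKM in P. The order of the replicates was the same in both fractions, and the ranges overlapped. The P values rest on 2 and 4 recovered reads. In NP replicate 3, where it was at 0, a count of 3 reads would be worth 0.0431 FPKM. The log2 difference was -0.40 (SE 0.95, 95% interval -2.37 to 1.56, limma adjusted p = 0.839), and it was -0.99 without NP replicate 3 and -0.014 without P replicate 3.

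Ordered by mean, the NP libraries ran *Espl1*, *Pttg1*, *Rad21*, *Stag3*, *Smc3*, *Smc1a*, *Smc1b*, *Rad21l* and *Rec8*. The P libraries ran *Espl1*, *Pttg1*, *Rad21*, *Smc1b*, *Smc1a*, *Stag3* and *Smc3*, with *Rec8* and *Rad21l* at 0. Between neighbours in these orders, only *Pttg1* and *Rad21* had ranges that did not overlap, and this held in both fractions. FPKM is scaled by exon length but not for base composition, whose part in these levels was not tested. The orders are therefore orders of listed values.

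Of the 9 genes, 7 passed the filter of a mean above 1 FPKM in either fraction. None was past an adjusted p of 0.1, against 1.82% of the 10578 genes tested (192 genes, of which 2 or 0.0189% were higher and 190 or 1.8% lower in P). None was below an unadjusted p of 0.05 either, against 15.8% of all. All P libraries stood above all NP libraries for 0 of the 7, against 0.633% of the genes tested, and all NP libraries above all P for 0 of the 7, against 23.2%. The log2 difference was above 0 for 4 of the 7 and for 19.9% of all genes tested, but the filter bears on this count, since *Smc1b* passed it only through P and *Smc1a*, *Smc3* and *Stag3* only through NP, and nothing is read from it. *Espl1*, *Pttg1* and *Rad21* passed it in both fractions. The median difference of all tested genes was -1.03. FPKM is relative to the mapped reads of each library, and the summed FPKM was lower in P (246182 to 393876) than in NP (597261 to 633110), so a difference between P and NP is not the share of an mRNA on polysomes. Under 3 other scalings the median of all genes moved to between -0.43 and -0.14, and *Smc1a* and *Stag3* turned positive in all 3, as did *Smc3* in the only 1 in which it passed the filter. These scalings raise most genes in P, and *Espl1* and *Pttg1* were then at between 2.39 and 2.52 and between 2.20 and 2.34. Both were then below an unadjusted p of 0.05 (limma, *Espl1* at 0.00927 to 0.0128 and *Pttg1* at 0.0106 to 0.0238), as were between 7.26% and 7.75% of all genes tested, and neither passed after adjustment (adjusted p of at least 0.503). *Espl1* was also below it without P replicate 2 (unadjusted p = 0.0363). The calls over all genes were far fewer under these scalings, with 2 higher and 1 lower in P after median-of-ratios rescaling, 2 and 3 after quantile normalization, and 2 and 5 after rescaling to a common FPKM sum.

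**Figure D2:**
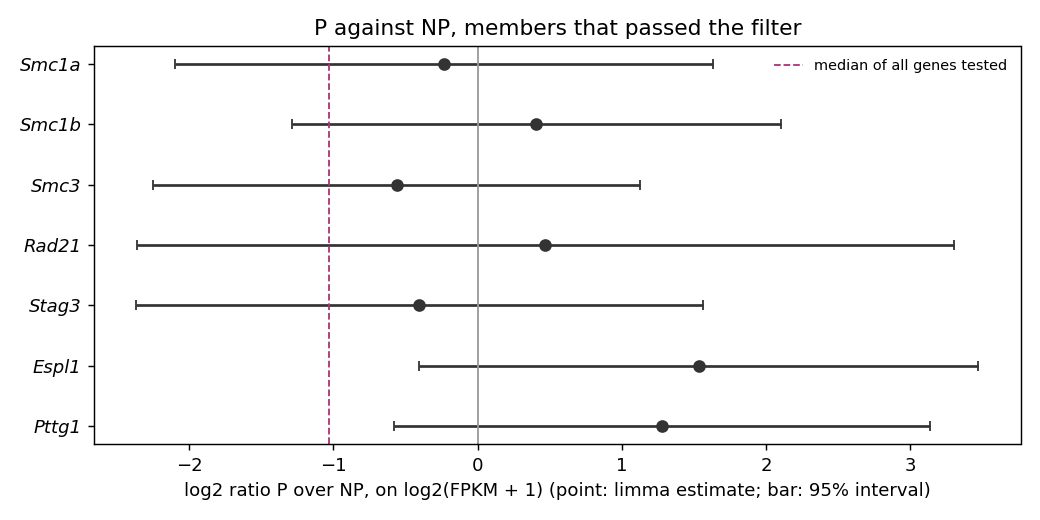
Log2 difference of P minus NP on log2(FPKM + 1) for the 7 genes that passed the filter, with points for the limma estimate and bars for its 95% interval. Every interval includes 0, and the dashed line marks the median of the 10578 genes tested, -1.03.

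Ratios within a library do not depend on how far that library's values are scaled, apart from the pseudocount of 1, and were compared between fractions for 4 pairs of genes. The ratio of inhibitor to protease, log2 of *Pttg1* over *Espl1*, was -1.14, -0.91 and 2.10 in NP and -0.68, 0.36 and -0.38 in P. Securin mRNA was the higher in 2 libraries, NP replicate 3 and P replicate 2, and separase mRNA in 4. NP replicate 3 stood apart, and the other 5 libraries lay between -1.14 and 0.36. The P mean differed from the NP mean by -0.25 (two-sided exact permutation test, p = 1), and by 0.79 without NP replicate 3.

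For the meiotic over the general SMC1, *Smc1b* over *Smc1a*, the log2 ratio was -1.08, 0.81 and -1.53 in NP and 0, -0.58 and 0.71 in P (difference 0.64, exact permutation p = 0.5), and the difference was 0.18 without NP replicate 3 and 1.35 without NP replicate 2. *Smc1b* was the higher of the pair in 2 libraries and *Smc1a* in 3. For *Stag3* over the general *Stag2* it was 2.13, 0.53 and -0.10 in NP and 0.85, -2.46 and -0.63 in P (difference -1.60, exact permutation p = 0.3), and the difference was -0.74 without P replicate 2 and -2.40 without P replicate 1. *Stag3* was higher in 3 libraries and *Stag2* in 3. For the kleisins, *Rec8* was listed at 0 throughout, so its ratio to *Rad21* carries only the values of *Rad21* and compares nothing further. With 3 libraries against 3 the exact test cannot go below p = 0.1, and the adjusted p was 1 for all 4 pairs.

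**Figure D3:**
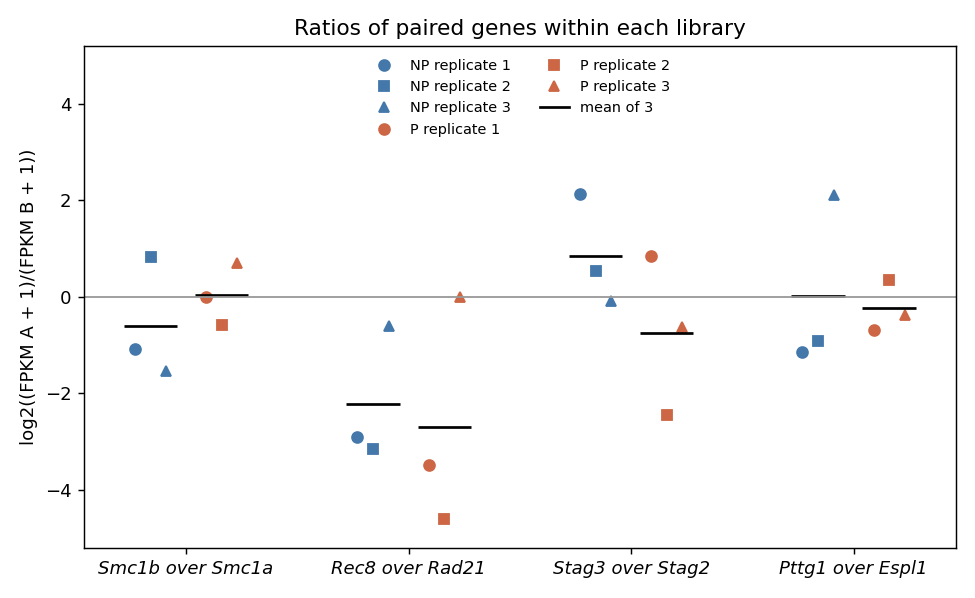
Log2 ratio of the FPKM (plus 1) of 2 genes within each library, for 4 pairs, with one point per NP or P library and a line at the mean of 3. The fractions overlap for every pair, and NP replicate 3 lies apart at 2.10 for *Pttg1* over *Espl1*.

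The other genes of the pathway were 29 regulators and further subunits, of which 26 were tested and 0 passed (1.82% of all genes did). Of the 26, 5 were below an unadjusted p of 0.05, beside 15.8% of all genes tested, and 20 had a negative log2 difference, beside 80.1% of all. Of the 6 with a positive one, *Stag1*, *Stag2* and *Sgo1* passed the filter only through P, and of the 20 *Meikin*, *Ppp2r1b* and *Ppp2r5e* passed only through NP, so the filter bears on both counts. All NP libraries stood above all P libraries for 7 of them (*Mau2*, *Meikin*, *Ppp2ca*, *Ppp2r1b*, *Ccnb1*, *Fzr1* and *Plk1*), beside 23.2% of all genes tested, and the reverse held for 0. *Meikin* and *Ppp2r1b* are among the 7 with the NP mean alone above the filter, so nothing is read from this count.

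The general STAG subunits were low in NP. *Stag1* was at 0.157, 0.576 and 0.0161 FPKM in NP and at 0, 4.86 and 0.692 FPKM in P (log2 difference 0.81, adjusted p = 0.606). *Stag2* was at 0.0977, 0.681 and 0.0697 FPKM in NP and at 0.738, 7.84 and 0.546 FPKM in P (1.20, adjusted p = 0.503). P replicate 2 was the highest library for both. It was the highest P library for 16 of the 26 tested regulators (61.5%), beside 42.8% of all genes tested.

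Of the loading and release factors, sororin (*Cdca5*), which protects cohesin from release, was the most abundant, at 1352 ± 652 FPKM in NP and 1074 ± 271 FPKM in P (SD, n = 3 each). It lay above at least 99.6% of the genes tested in both fractions, and its log2 difference was -0.22 (adjusted p = 0.845), which turned to between 0.62 and 0.78 under the 3 other scalings. *Mau2*, a subunit of the cohesin loader, was at 93.4, 234 and 270 FPKM in NP and at 29.4, 31.2 and 46.5 FPKM in P. The fractions of *Mau2* did not overlap, and its difference of -2.34 did not pass the test (adjusted p = 0.188). Its partner *Nipbl* was at 0.40 (adjusted p = 0.853). *Wapl* (listed as *Wapal*), which opens the ring, was at 6.59, 3.80 and 1.71 FPKM in NP and at 6.45, 16.5 and 12.7 FPKM in P (1.39, adjusted p = 0.530), and P replicate 1 lay within the NP range. *Pds5a*, a cofactor of both release and protection, had a difference of -1.26. Among the enzymes of SMC3 acetylation, the acetyltransferases *Esco1* and *Esco2* had differences of -0.29 and -0.94 and the deacetylase *Hdac8* had -1.86, which was -0.64 without NP replicate 2 and -3.35 without NP replicate 3. None of these passed the test.

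Of the protectors of centromeric cohesin, the shugoshin *Sgo1* (listed as *Sgol1*) was at 1.75 FPKM in NP replicate 2, 0.0433 FPKM in NP replicate 3 and 7.13 FPKM in P replicate 2, and was listed at 0 in the others. *Meikin*, the meiosis-specific kinetochore protein listed under its older name *4930404A10Rik*, was at 8.48, 5.73 and 15.1 FPKM in NP and at 0, 1.72 and 0.847 FPKM in P. It passed the filter only through NP, so its difference of -2.56 (adjusted p = 0.302) is given as a value only, and its P values rest on 3 and 2 recovered reads. Of the protein phosphatase 2A subunits, which shugoshin recruits to keep REC8 uncut, the scaffold *Ppp2r1a* had a difference of 0.28, the catalytic *Ppp2ca* -1.76, and the regulatory *Ppp2r5d* and *Ppp2r5b* -1.79 and -1.29, with adjusted p of at least 0.330.

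Of the genes that control separase, cyclin B1 (*Ccnb1*) was at 677, 1331 and 1686 FPKM in NP and at 462, 508 and 188 FPKM in P. The kinase *Plk1*, which phosphorylates kleisins, was at 682, 756 and 2085 FPKM in NP and at 266, 225 and 436 FPKM in P. Every NP library stood above every P library for both, with differences of -1.70 (adjusted p = 0.182) and -1.78 (adjusted p = 0.166). With the replicate number as a block, *Plk1* passed the test (adjusted p = 0.0905). *Fzr1*, an activator of the ubiquitin ligase that degrades securin, had -2.40 (adjusted p = 0.281), the other activator *Cdc20* -0.43 and *Cdk1* -0.21, and these last 2 turned positive under all 3 other scalings. All 5 tested genes of this list had negative differences on the deposited scale, as had 80.1% of all genes tested.

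**Figure D4:**
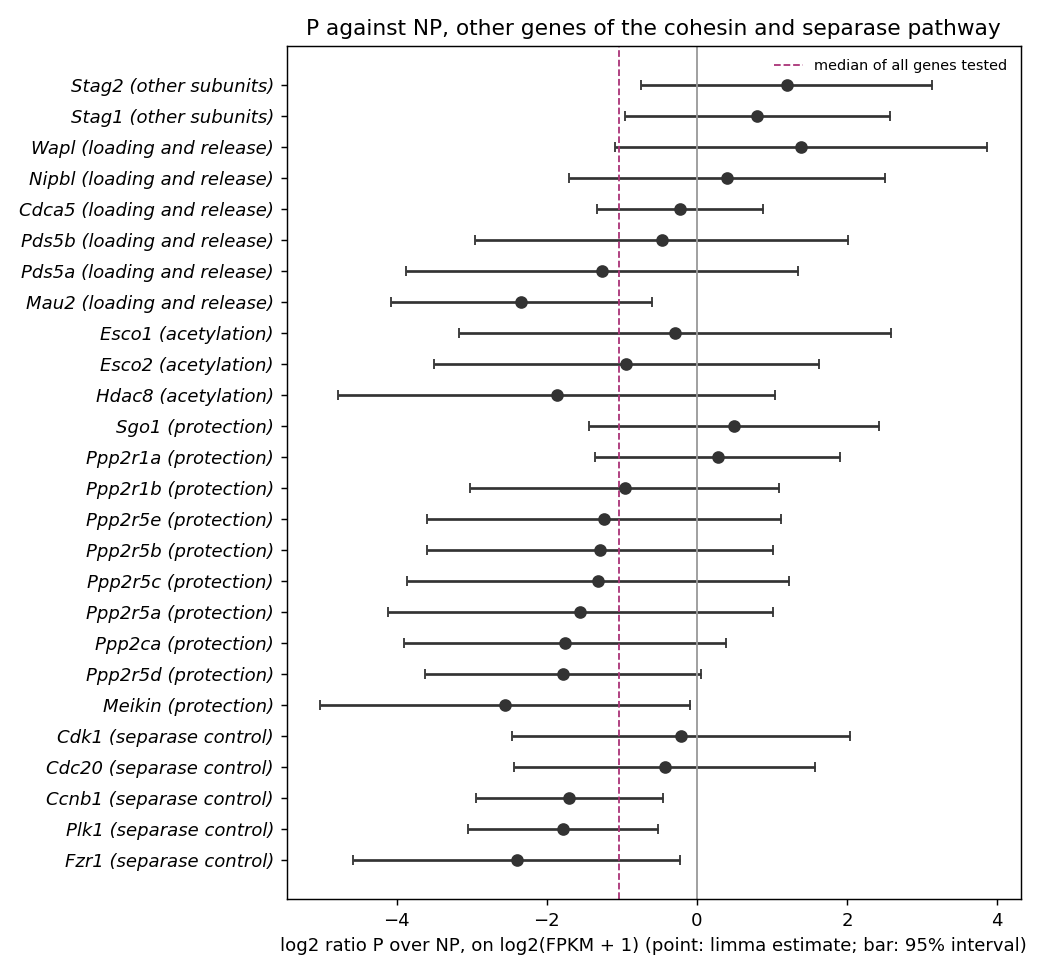
Log2 difference of P minus NP on log2(FPKM + 1) for the 26 tested regulators, by role, with points for the limma estimate and bars for its 95% interval. The dashed line is the median of all genes tested, -1.03, and the regulators lie on both sides of it.

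Base composition differed among the 9 mRNAs. In the longest coding transcript, G+C content was 56.7% for *Rec8*, 56.1% for *Espl1*, 49.6% for *Stag3*, 46.9% for *Smc1a*, 46.0% for *Pttg1*, 44.3% for *Rad21*, 42.3% for *Smc3*, 40.9% for *Rad21l* and 39.8% for *Smc1b*, beside a median of 50.3% over the tested genes. The share of genes with an NP mean above 1 FPKM was 23.7% in the lowest of 5 equal groups by G+C content and 46.1%, 53.4%, 53.2% and 47.5% in the groups above it. The median log2 difference went from -0.48 in the lowest group to -1.34 in the highest. *Smc3*, *Rad21l* and *Smc1b*, all low here, belong to the lowest group, while *Rec8* and *Espl1*, the gene listed at 0 and the most abundant one, both belong to the highest. The part of base composition in these levels was not tested.

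**Figure D5:**
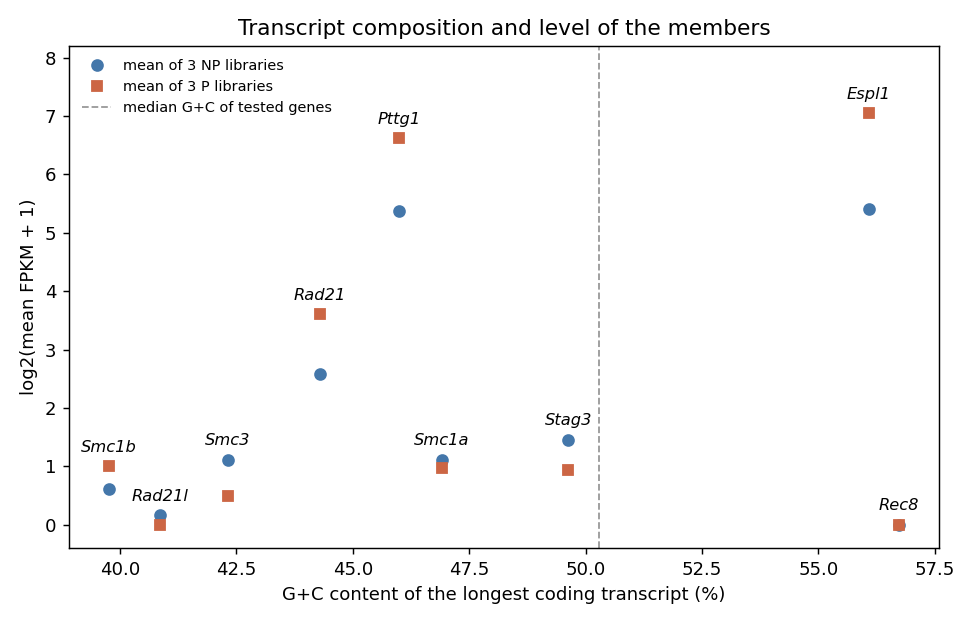
G+C content of the longest coding transcript (%) against log2 of the mean FPKM plus 1, for the 9 mRNAs, with a point for the mean of 3 NP and a point for the mean of 3 P libraries. *Espl1* and *Rec8* lie at the same end of the composition axis, at the highest level and at 0.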

How the data were processed

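The deposited values are FPKM per gene, which the authors made in Seqmonk from reads trimmed with Trim Galore 0.4.1 and mapped by HISAT2 2.0.5 to the GRCm38 assembly. Before sequencing, RNA was depleted of rRNA and amplified from random and oligo-dT primers. Annotation release and strand setting: not given in the sources used here. For 58 symbols listed more than once among 25965 rows, the one with the higher mean was kept, and the columns of fraction means were not used. Depth was estimated as the read total at which most low values became whole (within 0.02 reads), using GENCODE M21 exon lengths, found for 94.9% of symbols. Between 59.0% and 65.4% of low values per library became whole, so recovered reads are estimates, least certain for abundant genes. In simulation 3 depths of 3 came back.

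The fractions were tested by limma 3.58.1 (R 4.3.3), two-sided, on log2 of FPKM plus 1, letting the variance follow the expression level. Genes needed a mean of more than 1 FPKM in NP or in P, and p-values were adjusted by Benjamini-Hochberg over all of them, with 0.1 as threshold. This scale understates changes of low genes. In simulated tables with a residual SD of 0.3, the test found 192 of 200 genes shifted by 2 on the log2 scale and made 12 false calls among 9695 genes. With the residual SD of the real libraries, 1.22, it found 6 of 200 with 0 false calls among 10187.

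Gene pairs were compared by exact permutation tests. The members and lists were chosen with earlier results of these data known. Of each list but the cell type markers the text names genes past the threshold and up to 4 with the highest mean. It also names genes used in ratios and genes at 0 throughout. *Nipbl*, *Fzr1*, *Sgo1*, *Meikin*, *Ppp2r1b*, *Ppp2r5e*, *Set* and *Smc6* were named besides these, after their values were seen. Of the markers, only granulosa and cumulus genes are named, those at 0 throughout and, after their values were seen, *Cyp19a1*, *Nr5a2* and *Star*. Alternatives were leaving out each library, changing the pseudocount, filter, scaling or threshold, dropping the trend, and adding the replicate number as a block. Plots were made in Python 3.11.15. Sequences are from the GRCm38 genome and GENCODE M21.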

Additional observations from a re-analysis of the deposited data

How the results depend on the processing

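No member of the pathway passed the threshold of limma under any of the 16 alternatives. Of these, 5 (both filters, no trend, the block and the threshold of 0.05) leave a log2 difference as it is and change only its test, and the 3 rescalings raise most genes in P, so neither kind bears on whether a positive difference holds. Under 2 other pseudocounts and with each library left out, *Espl1* and *Pttg1* had positive differences from 0.95 to 2.24 and from 0.99 to 1.74, and over all 16 their adjusted p was from 0.305 to 0.650 and from 0.239 to 0.715. The libraries shared replicate numbers, but same-numbered deviations correlated at only 0.0634, 0.0991 and 0.116 (other pairs -0.0886 to 0.0208), not all above 0.1, and no source used here says that the numbers match, so the fit was made without pairs. Each library did correlate best with its own number. The paper pooled NP and P fractions from each sample, so the libraries came in pairs, though the numbers only hint at which. The main fit and the permutation tests do not use pairs. Between libraries of one number *Pttg1* was higher in P in 3 of 3 and *Espl1* in 2 of 3, and with the block their adjusted p was 0.420 and 0.347. With the replicate block 668 genes were called instead of 192, among them 1 of the regulators, *Plk1*, and it changed no call among the members. The genes past the threshold numbered 69 with a pseudocount of 0.1, 0 with no filter (1759 at an unadjusted p under 0.05), 15 with no trend, 3 with median-of-ratios rescaling, 5 with quantile normalization, 7 with a common FPKM sum and 65 at a threshold of 0.05. Leaving out 1 library gave from 1 gene (without NP replicate 3) to 331 genes (without P replicate 3), with 4 without NP replicate 1 and 12 without NP replicate 2. The differences turned in sign with a pseudocount of 0.1 for *Rad21* (-0.16) and for the ratio of *Rec8* to *Rad21* (0.16), and with a pseudocount of 5 for *Esco1* (0.20). With median-of-ratios rescaling they turned to 0.19 for *Smc1a*, 0.049 for *Stag3*, 0.78 for *Cdca5*, 0.42 for *Esco1*, 0.75 for *Cdk1* and 0.54 for *Cdc20*. With quantile normalization they turned to 0.47 for *Smc1a*, 0.52 for *Smc3*, 0.50 for *Stag3*, 0.62 for *Cdca5*, 0.90 for *Esco1*, 0.32 for *Esco2*, 0.0059 for *Ppp2r5b*, 0.79 for *Cdk1* and 0.57 for *Cdc20*. With a common FPKM sum they turned to 0.21 for *Smc1a*, 0.026 for *Stag3*, 0.71 for *Cdca5*, 0.33 for *Esco1*, 0.69 for *Cdk1* and 0.48 for *Cdc20*. Leaving out 1 library gave ranges that include both signs for *Smc1a* (-0.64 to 0.18), *Rad21* (-0.49 to 1.82), *Cdca5* (-0.70 to 0.096), *Esco1* (-1.94 to 0.69), *Cdk1* (-1.47 to 0.64), *Nipbl* (-0.11 to 0.86), *Ppp2r1a* (-0.093 to 0.88), and the ratios of *Rec8* to *Rad21* (-1.82 to 0.49) and *Pttg1* to *Espl1* (-0.83 to 0.79). Without a change of sign the range was 0.18 to 0.87 for *Smc1b*, -0.89 to -0.36 for *Smc3*, -2.39 to -0.58 for *Pds5a*, -1.46 to -0.34 for *Esco2*, -2.04 to -0.62 for *Ppp2r5b*, 0.67 to 1.36 for *Stag1* and -0.72 to -0.076 for *Cdc20*. A gene under the filter in an alternative got no value there. With pseudocounts of 0.1 and 5 the ratio of *Smc1b* to *Smc1a* differed by 2.22 and 0.17, and that of *Stag3* to *Stag2* by -3.09 and -0.66. The causes were not tested. The P libraries are shallow, and at the noise of these libraries most changes of 2 on the log2 scale were missed on simulated data.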

Other observations

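Of 14 genes of the related SMC complexes, condensin and the SMC5/6 complex, 12 were tested and 0 passed (limma, adjusted p under 0.1), beside 1.82% of all genes tested. An unadjusted p under 0.05 was seen for 2 of the 12, beside 15.8% of all, and the median log2 difference was -0.96, beside -1.03. *Smc6* passed the filter only through P, so the filter bears on this median. *Nsmce1*, a subunit of the SMC5/6 complex, was at 577, 313 and 148 FPKM in NP and at 82.7, 94.9 and 18.5 FPKM in P, and every NP library stood above every P library (difference -2.48, adjusted p = 0.165). The same separation was seen for the condensin II kleisin *Ncaph2*, at 57.5, 51.3 and 33.8 FPKM in NP and at 10.2, 11.1 and 6.15 FPKM in P (-2.26, adjusted p = 0.290). *Nsmce4a* (-1.99) and the condensin II subunit *Ncapd3* (-1.90) did not pass the test either. The mean of *Ncaph2* was 47.5 FPKM in NP and 9.13 FPKM in P, beside 4.99 and 11.2 FPKM for the cohesin kleisin *Rad21*.

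Of 9 genes of the chromosome axis and synaptonemal complex, which cohesin organises in meiotic prophase, 3 were tested and 0 passed, beside 1.82% of all genes tested, with 1 below an unadjusted p of 0.05, beside 15.8%. *Syce2*, a central element protein, was at 571, 786 and 587 FPKM in NP and at 112, 199 and 336 FPKM in P, with no overlap between the fractions (difference -1.71, adjusted p = 0.204). *Hormad2* (0.94) and *Tex12* (-0.055) had mean levels of at most a few FPKM, and *Syce3* was listed at 0 in all 6 libraries. *Hormad2* passed the filter only through P, so its difference is given as a value only. It was at 13.4, 0 and 0.472 FPKM in P, the first of these on 6 recovered reads.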
